A study of Mus musculus with 6 samples.

Results

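The genes described here encode 7 secreted proteins that cells release under stress: the hormones FGF21 and GDF15, the stanniocalcins STC1 and STC2, the adrenomedullins ADM2 and ADM, and the vascular growth factor VEGF-A. They were found by gene symbol, and all 7 were among the 24391 gene rows of the count tables and passed the filter on low counts. They were chosen with their difference between AVP-treated and control cells already known, so their levels are given as a description without a test. RNA sequencing was done on GT1-7 cells, an immortalised mouse line of hypothalamic neurons that make gonadotropin-releasing hormone. The genotype of the line is given as wild-type, which was not checked here. After 12 h without serum, 3 cultures received arginine vasopressin (AVP), a hypothalamic peptide hormone, at 200 pg/mL for 6 h, and 3 control cultures received vehicle. One label calls the controls untreated instead, which could not be settled. GT1-7 is a single line, the cultures of a group are labelled as biological replicates of it, and all 6 share 1 batch label.

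Cells reduce general protein synthesis under amino acid shortage or misfolded protein by phosphorylating the translation factor eIF2, a programme called the integrated stress response. The transcription factor ATF4 is made when this happens, and it acts with CHOP (gene Ddit3) and C/EBP partners on genes of amino acid supply. FGF21 and GDF15 are known as hormones that carry news of such stress to other organs: FGF21 acts through FGF receptors with the co-receptor beta-klotho, and GDF15 acts on the receptor GFRAL of the hindbrain. STC2, ADM2 and VEGF-A are also known to be induced through ATF4, whereas VEGF-A, ADM and STC1 are known as targets of hypoxia-inducible factors.

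Libraries held 35597040 to 37418318 counts with AVP and 34908867 to 36826004 in controls, and the floor used here, 3 counts, equals 0.0802 to 0.0859 CPM (counts scaled to the library total). Levels below are CPM scaled by TMM factors. Genes with any count numbered 16674 to 16739 per AVP library and 16166 to 16403 per control library. Control replicate 1 stood apart by holding 0.995% of its counts on the ribosomal precursor Rn45s, against 0.139 to 0.245% in the other libraries. The summed level of 8 neuronal markers was 2203 to 2310 CPM with AVP and 2499 to 2662 CPM in controls. Against 57.5% of all tested genes past the threshold described below, 2 of 7 tested markers were higher, 2 lower and 3 not past it. Among the 8 markers Gnrh1, which defines the labelled cell type, had only 11 to 26 counts per library. Stmn2 had 1 count over the AVP libraries and 0 over the control libraries. Of 12 markers of glia, microglia, endothelium, fibroblasts and hepatocytes, only Mbp exceeded 1 CPM, at 16.8 ± 1.11 CPM with AVP and 49.2 ± 2.84 CPM in controls (SD, n = 3). The other markers summed to 0.945 to 1.93 CPM with AVP and 0.691 to 1.10 CPM in controls, with Mog and Ttr at 0 in both groups and Alb at 0 in controls. The part of detected genes or Mbp in the levels below was not tested. With Rn45s left out of the counts, the log2 fold change of Fgf21 was -3.52 as before, and without control replicate 1 it was -3.45. In these bulk samples, fewer cells that express a gene and less of its RNA per cell cannot be told apart.

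Fgf21, Gdf15, Stc2, Adm2 and Vegfa were lower in all 3 AVP libraries than in any control library, Stc1 was higher in all 3, and the groups overlapped for Adm. Over all 14163 tested genes, 63.4% had groups that did not overlap, 31.4% with every AVP library below and 32.0% with every AVP library above the controls. Because the genes were selected on this difference, nothing is read from their count against that background. The 4 largest differences, in Fgf21, Adm2, Stc2 and Gdf15, lay between 4.67-fold and 11.5-fold.

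**Figure D1:**
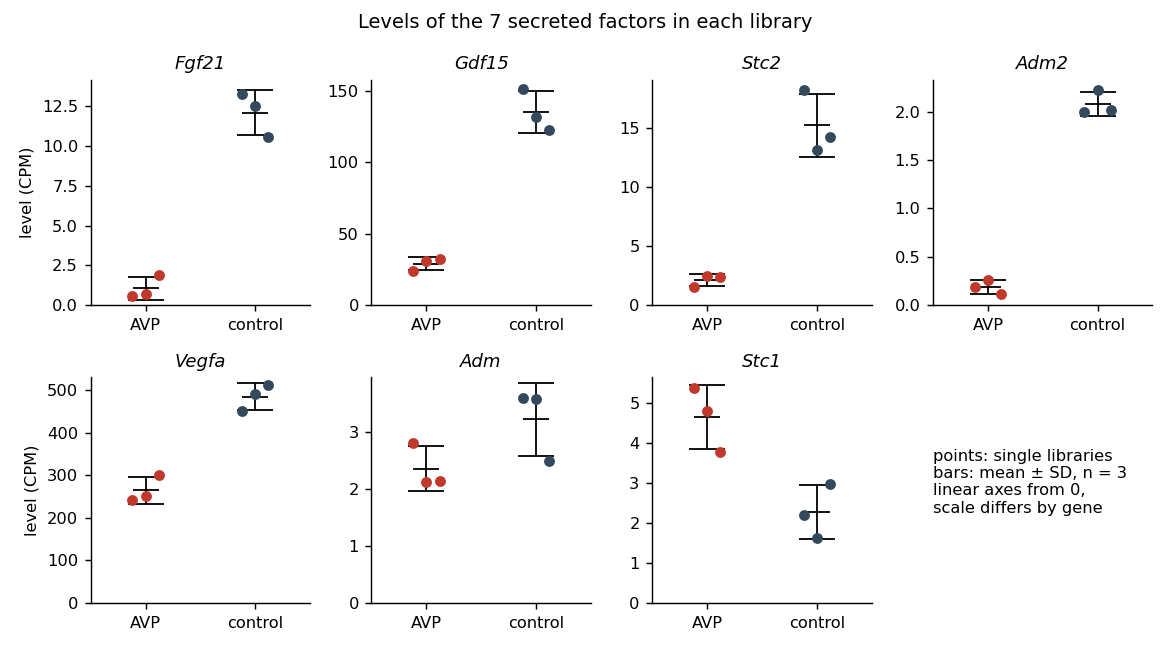
Levels in CPM (vertical axes, linear from 0, scale set for each gene) of the 7 genes in AVP and control libraries; points are single libraries and bars the mean ± SD (n = 3). The AVP points of Fgf21, Gdf15, Stc2, Adm2 and Vegfa lie below all control points, those of Stc1 lie above, and those of Adm overlap with the controls.

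Fgf21 (GRCm38 chromosome 7, 45613886 to 45615490, minus strand) encodes the fasting and stress hormone known chiefly from liver. It was measured at 0.598, 0.687 and 1.89 CPM in AVP replicates 1, 2 and 3 and at 13.2, 12.5 and 10.5 CPM in control replicates 1, 2 and 3. The groups were far apart, and AVP replicate 3 was the highest of the AVP libraries. The log2 fold change was -3.52 (SE 0.32), which is 11.5-fold lower with AVP, and 18 tested genes had a lower log2 fold change. This size rests in part on 1 library: without AVP replicate 3 the log2 fold change was -4.22, or 18.7-fold lower.

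The 250 bases before the RefSeq start of Fgf21 (GRCm38.p6, chr7:45615491-45615740, minus strand) are shown because they hold the sequence that is known to bind ATF4 with C/EBP partners, given in capitals as it reads on the strand of the gene.
Fgf21: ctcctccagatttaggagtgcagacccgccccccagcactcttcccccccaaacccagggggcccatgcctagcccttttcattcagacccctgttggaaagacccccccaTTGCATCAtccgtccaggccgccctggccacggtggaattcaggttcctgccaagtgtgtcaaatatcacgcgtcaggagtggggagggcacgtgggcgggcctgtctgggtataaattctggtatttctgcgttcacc
The capitals begin 139 bases before the start and read TGATGCAA on the other strand. Windows of 300 bases, from 250 before to 50 after the start, were searched on both strands for the broader motif TGATGNAA. It occurred in 3.97% of 32851 windows, and the exact TGATGCAA in 0.895%. A window was given for 6 of the 7 genes, all but Stc1, and only that of Fgf21 held TGATGNAA, which says nothing of sites outside these windows.

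The same letters stood in the windows of several known stress response genes. TGATGNAA was found in 5 of 13 ATF4 targets and 3 of 13 stress response regulators that had a window, against 4.51% of 27025 genes. It was also in 2 of 10 other stress-secreted factors. No window of the IRE1 and ATF6, hypoxia, p53, metabolic regulator, ligand relative or stanniocalcin partner lists held it. ATF4 targets and regulators were listed as genes already known for this response, so these counts are a description and not a test. The stretches that read TGATGCAA are printed below on the strand where the motif (capitals) reads so, to set the Fgf21 site beside those of genes listed here as stress response regulators, ATF4 targets or stress-secreted factors.
Fgf21, chr7:45615611-45615640, plus strand: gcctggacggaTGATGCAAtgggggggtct
Inhbe, chr10:127352011-127352040, plus strand: gtggacatgcaTGATGCAAgaaagaggatg
Atf3, chr1:191183425-191183454, plus strand: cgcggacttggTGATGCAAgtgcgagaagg
Nupr1, chr7:126625562-126625591, plus strand: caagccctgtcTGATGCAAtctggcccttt
Chac1, chr2:119351038-119351067, minus strand: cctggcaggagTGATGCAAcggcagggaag
Slc7a11, chr3:50443661-50443690, minus strand: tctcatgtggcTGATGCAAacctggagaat
Slc7a11, chr3:50443642-50443671, plus strand: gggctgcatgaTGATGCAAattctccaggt
Pycr1, chr11:120643833-120643862, minus strand: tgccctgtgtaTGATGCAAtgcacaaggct
Vldlr, chr19:27216809-27216838, minus strand: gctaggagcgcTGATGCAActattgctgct
Slc7a11 holds the motif on both strands, with the 2 stretches overlapping. Trib3, Asns, Cdnf, the receptor gene Calcrl and the neuronal marker gene Tubb3, which rose by 0.52 on the log2 scale, held other forms of TGATGNAA. The motif was thus in the windows of 1 of 5 neuronal markers and 1 of 13 receptor genes as well. A match is a description of letters and not of binding.

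Gdf15 (chromosome 8, 70629393 to 70632456, minus strand) encodes a distant member of the TGF-beta family that suppresses appetite. It was measured at 23.7, 31.2 and 32.0 CPM in AVP replicates 1, 2 and 3 and at 151, 132 and 122 CPM in control replicates 1, 2 and 3. The lowest control library lay well above the highest AVP library, and the log2 fold change was -2.22 (SE 0.12), or 4.67-fold lower with AVP. The second of its 2 RefSeq windows held ACGTG on both strands, the letters CACGTG, which are an E-box and also contain the core of a hypoxia response element. The Fgf21 window held CACGTG too, and ACGTG occurred in 19.6% of all windows.

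Stc2 and Stc1 encode related secreted glycoproteins that are known to inhibit the protease PAPP-A and so restrain insulin-like growth factor release, and they differed in opposite directions. Stc2 (chromosome 11, 31357307 to 31370074, minus strand) was measured at 1.55, 2.48 and 2.42 CPM in AVP replicates 1, 2 and 3 and at 18.3, 13.1 and 14.3 CPM in control replicates 1, 2 and 3. Its log2 fold change was -2.82 (SE 0.18), or 7.07-fold lower with AVP. Stc1 (chromosome 14, 69029238 to 69041804, plus strand) was measured at 5.36, 4.78 and 3.78 CPM in AVP replicates 1, 2 and 3 and at 2.18, 1.63 and 2.97 CPM in control replicates 1, 2 and 3. Every AVP library was above every control library, and the log2 fold change was 1.04 (SE 0.23), or 2.05-fold higher with AVP. Exons of the antisense gene Gm41192 overlap those of Stc1, and since the sources used here do not state whether strand was used in counting, part of the Stc1 count could come from it.

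The ratio of Stc2 to Stc1 counts within a library, which no scaling of libraries can alter, was 0.289, 0.519 and 0.640 in AVP replicates 1, 2 and 3 and 8.35, 8.05 and 4.81 in control replicates 1, 2 and 3. Stc1 counts thus exceeded Stc2 counts in every AVP library, and Stc2 counts exceeded Stc1 counts in every control library. Per kilobase of annotated exon, Stc1 averaged 1.11 ± 0.191 CPM and Stc2 0.416 ± 0.101 CPM with AVP, against 0.539 ± 0.160 CPM for Stc1 and 2.94 ± 0.519 CPM for Stc2 in controls (SD, n = 3).

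Adm2 and Adm encode vasodilator peptides of the calcitonin family. Adm2 (chromosome 15, 89322720 to 89324731, plus strand), also called intermedin, had 7, 10 and 4 counts in AVP replicates 1, 2 and 3 and 72, 79 and 70 counts in control replicates 1, 2 and 3. This corresponds to 0.189 ± 0.0766 CPM with AVP and 2.08 ± 0.126 CPM in controls, with a log2 fold change of -3.43 (SE 0.36), or 10.8-fold lower with AVP. Adm2 passed the filter on low counts through its control libraries. Adm (chromosome 7, 110627661 to 110629820, plus strand) was measured at 2.80, 2.11 and 2.14 CPM in AVP replicates 1, 2 and 3 and at 3.59, 3.57 and 2.48 CPM in control replicates 1, 2 and 3. AVP replicate 1 lay above control replicate 3, and the log2 fold change of -0.45 had an SE of 0.22. The ratio of Adm2 to Adm counts was 0.0680, 0.125 and 0.0519 in the AVP libraries and 0.554, 0.622 and 0.814 in the control libraries.

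Vegfa (chromosome 17, 46016993 to 46032369, minus strand) encodes the main growth factor of blood vessels. It was measured at 242, 251 and 302 CPM in AVP replicates 1, 2 and 3 and at 451, 491 and 512 CPM in control replicates 1, 2 and 3. The groups were separate, and the log2 fold change of -0.87 (SE 0.08), or 1.83-fold lower with AVP, was smaller than those of Fgf21, Gdf15, Stc2 and Adm2. Its relative Vegfb was also lower, and the ratio of Vegfa to Vegfb counts was 7.66 ± 0.764 with AVP and 8.27 ± 1.13 in controls (SD, n = 3), and its groups overlapped.

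**Figure D2:**
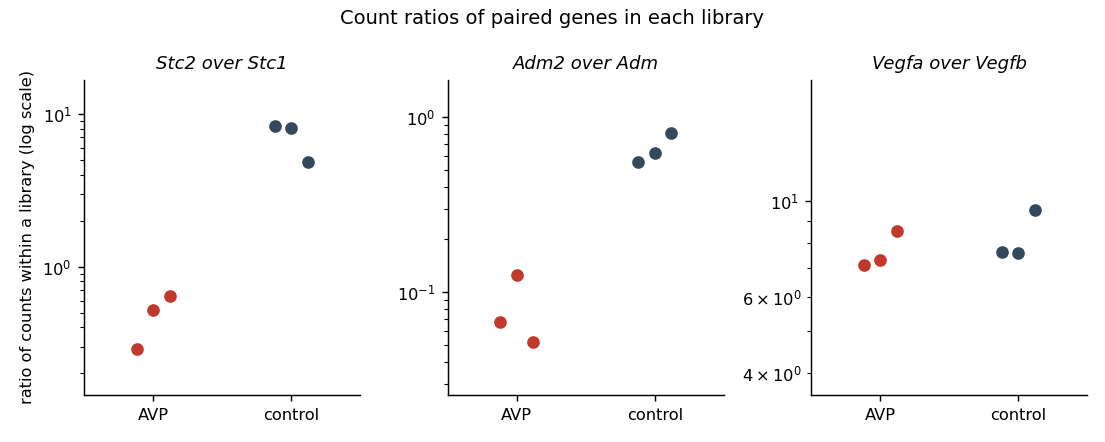
Ratio of the counts of 2 genes within each library (vertical axes, log scale) for AVP and control libraries; each point is 1 library. The Stc2 to Stc1 and Adm2 to Adm ratios of AVP libraries lie below all control libraries, and the Vegfa to Vegfb ratios of the groups overlap.

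Per kilobase of exon, Vegfa was the highest of the 7 genes in both groups, at 61.8 ± 7.51 CPM with AVP and 113 ± 7.24 CPM in controls (SD, n = 3). Gdf15 came next, at 15.6 ± 2.47 CPM with AVP and 73.0 ± 7.91 CPM in controls. With AVP, Adm, Fgf21 and Stc1 followed at 1.45 ± 0.241, 1.11 ± 0.758 and 1.11 ± 0.191 CPM per kilobase, and Fgf21 overlapped with both of the others, while every Adm library lay above every Stc1 library. Stc2 and Adm2, at 0.416 ± 0.101 and 0.145 ± 0.0590 CPM per kilobase, were the lowest with AVP. In controls the order was Fgf21 at 12.7 ± 1.48, Stc2 at 2.94 ± 0.519, Adm at 1.99 ± 0.393, Adm2 at 1.60 ± 0.0974 and Stc1 at 0.539 ± 0.160 CPM per kilobase, and only Adm and Adm2 overlapped there. Among all tested genes with an annotated length, Fgf21 stood above 19.6% of them with AVP and above 67.0% in controls. For Gdf15 these shares were 72.5% with AVP and 95.6% in controls.

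The profile of each gene over the 6 libraries was compared with those of the other named genes of at least 5 CPM, by the root mean square distance of centred log2 CPM. This distance depends largely on the difference between AVP and control on which the secreted factors were chosen. Genes with a similar difference therefore come out nearest, and nothing on shared regulation is read from them. Nearest to Fgf21 were Cth, an enzyme of cysteine synthesis, at 0.36 and Cox6a2, a cytochrome oxidase subunit, at 0.37. For Gdf15 they were Igfbp4 at 0.08 and the oxytocin receptor gene Oxtr at 0.09. For Stc2 they were the transcription factor gene Klf15 and the translation repressor gene Eif4ebp1, both at 0.24. Chac1, a glutathione-degrading enzyme, and the stress protein gene Nupr1 were nearest to Adm2, at 0.23 and 0.25. For Vegfa they were Mst1 at 0.05 and Ghitm at 0.06, for Adm Hspb11 at 0.07 and Rplp2 at 0.09, and for Stc1 Kbtbd8 at 0.17 and Tmem117 at 0.18.

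The genes around the 7 secreted factors were tested in the fit over all genes with edgeR's quasi-likelihood test, where an adjusted p under 0.05 was reached by 57.5% of 14163 genes, 28.7% higher and 28.8% lower with AVP. Regulators of the integrated stress response fell, with 12 of 14 lower and 0 higher, and a median log2 fold change of -1.20 against 0.01 over all tested genes. At an unadjusted p under 0.05 the count higher was 0 as well, and DESeq2 also called 12 lower and 0 higher. Atf4 averaged 371 ± 23.2 CPM with AVP and 1011 ± 65.4 CPM in controls (log2 fold change -1.45, SE 0.06, adjusted p = 2.33e-11). Ddit3, which encodes CHOP, fell to 20.1 ± 0.612 CPM with AVP, against 128 ± 9.92 CPM in controls (adjusted p = 4.52e-13). Atf3, a partner factor that ATF4 induces, fell by 1.14, Nupr1 fell by 3.28, and Ppp1r15a, which directs the removal of the phosphate from eIF2, fell by 2.11 on the log2 scale. The kinase genes upstream moved little: Eif2ak3 (PERK) and Eif2ak4 (GCN2) each fell by 0.23, and Eif2ak1 and Eif2ak2 did not pass the threshold. The fall of Eif2ak4 missed the threshold without AVP replicate 1, AVP replicate 3 or control replicate 2.

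All 15 intracellular and membrane ATF4 targets fell, against 28.8% of all tested genes, with a median log2 fold change of -1.62. DESeq2 also called 15 lower and 0 higher. None was higher at an unadjusted p under 0.05, and without AVP replicate 2 the number called was 14. Slc7a11, the cystine transporter gene, averaged 6.02 ± 1.00 CPM with AVP and 77.2 ± 4.50 CPM in controls. Chac1 averaged 15.2 ± 1.92 CPM with AVP and 164 ± 14.6 CPM in controls. Mthfd2, of mitochondrial folate metabolism, and Sesn2, a brake on growth signalling, fell by 1.70 and 1.74 on the log2 scale.

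The other arms of the unfolded protein response moved less. Of 9 genes of the IRE1 and ATF6 arms, 5 fell, 1 rose and 3 did not pass the threshold, with a median of -0.34. Among all tested genes, 28.8% fell and 28.7% rose. Atf6 fell by 1.14, Xbp1 by 0.87, Hsp90b1 by 0.52 and Dnajb9 by 0.41 on the log2 scale. The only rise, of the chaperone gene Pdia4, did not pass without AVP replicate 2, AVP replicate 3 or control replicate 3.

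**Figure D3:**
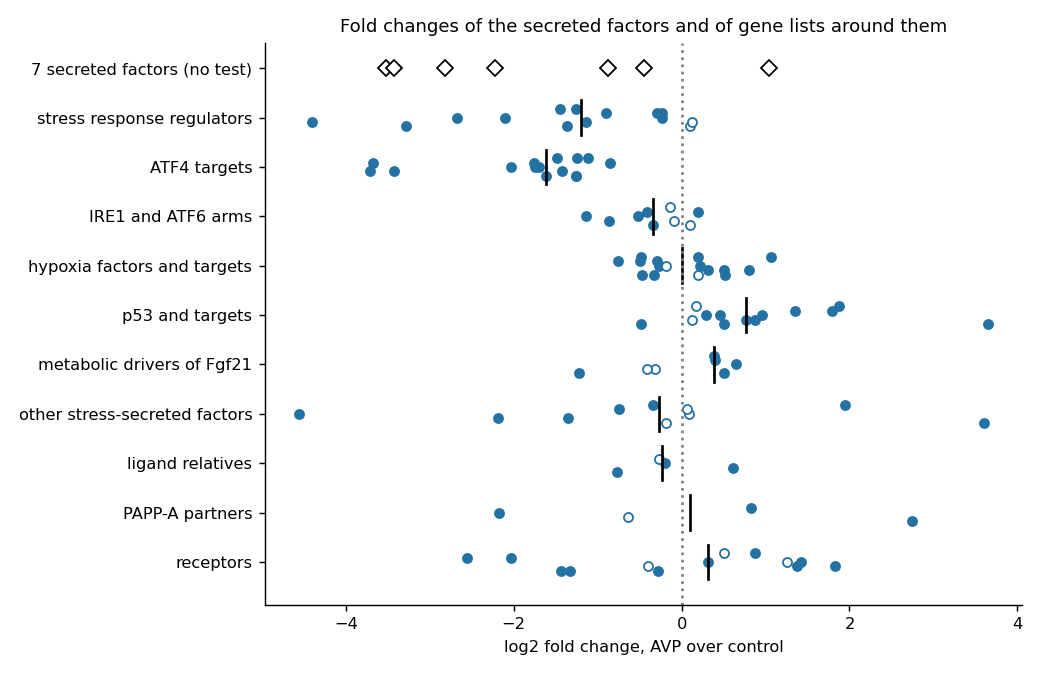
Log2 fold change of AVP over control (horizontal axis) for the 7 secreted factors (open diamonds, no test) and for tested genes of lists around them (circles; filled where the adjusted p was under 0.05), with the median of each list as a bar and that of all tested genes as a dotted line. The 15 ATF4 targets all lie to the left of the line, and hypoxia genes lie on both sides.

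Hypoxia factors and their targets, a list that bears on Vegfa, Adm and Stc1, moved in both directions. Of 16 tested genes, 7 rose, 7 fell and 2 missed the threshold (median log2 fold change 0.00). Over all tested genes, 28.7% rose and 28.8% fell. Hif1a, which encodes the oxygen-regulated subunit, averaged 69.2 ± 1.84 CPM with AVP and 48.5 ± 5.03 CPM in controls (log2 fold change 0.51, SE 0.07, adjusted p = 2.61e-05). Epas1 (HIF-2 alpha) had 19 counts over the AVP libraries and 1 over the control libraries and was not tested. Among the targets, the demethylase gene Kdm3a and the lactate dehydrogenase gene Ldha rose by 0.80 and 0.50, whereas Ndrg1 fell by 0.76. Vegfa and Stc1 thus differed in opposite directions within a set of known targets that also split.

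p53 is the other well-known inducer of Gdf15, and its part in the Gdf15 level was not tested. Of 13 genes, p53 and its targets, 10 rose, 1 fell and 2 did not pass the threshold, with a median log2 fold change of 0.76. The shares over all tested genes were 28.7% higher and 28.8% lower. Trp53 itself rose by 0.50, Ccng1 (cyclin G1) averaged 370 ± 6.71 CPM with AVP and 107 ± 1.19 CPM in controls, and the death receptor gene Fas averaged 8.07 ± 0.0525 CPM with AVP and 0.638 ± 0.108 CPM in controls. Aen and Eda2r rose by 0.96 and 1.88 on the log2 scale. The 1 gene that fell, Bbc3, was named after its values were seen, and its call was lost without AVP replicate 1 or control replicate 1.

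Of 7 metabolic regulators of Fgf21 known from liver, 4 rose, 1 fell and 2 did not pass the threshold. This compares with 28.7% rising and 28.8% falling over all tested genes. Ppara, the nuclear receptor of the fasting response, averaged 3.24 ± 0.611 CPM with AVP and 7.58 ± 0.512 CPM in controls (log2 fold change -1.22, SE 0.17, adjusted p = 1.38e-05). Mlxipl, which encodes the sugar sensor ChREBP, and its partner gene Mlx rose by 0.64 and 0.40, and the deacetylase gene Sirt1 rose by 0.51. The count of falls was 2 without AVP replicate 3 or control replicate 3, where the retinoid receptor gene Rxra, named after its values were seen, was also called.

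Other secreted factors known from stress or metabolism moved both ways. Among 10 tested genes, 5 fell, 2 rose and 3 missed the threshold (median log2 fold change -0.26). For comparison, 28.8% of all tested genes fell and 28.7% rose. Inhbe, an inhibin subunit gene known as an ATF4 target, averaged 1.90 ± 0.712 CPM with AVP and 44.7 ± 2.59 CPM in controls, and Angptl6 averaged 9.95 ± 1.39 CPM with AVP and 45.4 ± 2.09 CPM in controls. The lipase inhibitor gene Angptl4 rose to 1.98 ± 0.309 CPM with AVP, against 0.161 ± 0.0995 CPM in controls. Angptl4 was tested through its AVP libraries and had 2, 9 and 6 counts in control replicates 1, 2 and 3. The cytokine gene Lif rose to 7.72 ± 0.350 CPM with AVP, against 1.99 ± 0.152 CPM in controls. Of 4 ligand relatives with enough counts, 2 fell and 1 rose: Vegfb and Pgf (placental growth factor) fell by 0.77 and 0.20. Vegfd, listed in the files under its older symbol Figf, rose by 0.62. The endocrine relative Fgf23 had a log2 fold change of -0.27 (adjusted p = 0.632), and Calca, Calcb, Iapp, Fgf15 and Vegfc had too few counts to be tested.

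The receptors through which these proteins act were measured in the same cells. Of 13 tested, 5 rose, 5 fell and 3 did not pass the threshold, while over all tested genes 28.7% rose and 28.8% fell. For FGF21, the receptor gene Fgfr1 averaged 59.3 ± 5.99 CPM with AVP and 161 ± 7.20 CPM in controls (log2 fold change -1.44, SE 0.07, adjusted p = 2.18e-10). Fgfr3 averaged 11.4 ± 0.623 CPM with AVP and 3.21 ± 0.280 CPM in controls (log2 fold change 1.83, SE 0.14, adjusted p = 2.27e-08). Klb, the beta-klotho gene on which FGF21 signalling depends, was near the floor, with 15, 14 and 21 counts in AVP replicates 1, 2 and 3 and 2, 13 and 5 counts in control replicates 1, 2 and 3 (adjusted p = 0.0769). Without control replicate 2 its adjusted p was 0.0183, and Klb was tested through its AVP libraries.

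For GDF15, Gfral had 2, 8 and 6 counts in AVP replicates 1, 2 and 3 and 20, 23 and 21 counts in control replicates 1, 2 and 3 (log2 fold change -2.03, SE 0.52, adjusted p = 0.0033), and like Adm2 it was tested through its control libraries. Its signalling partner gene Ret averaged 14.7 ± 0.624 CPM with AVP and 7.99 ± 0.484 CPM in controls, a rise of 0.88 on the log2 scale (adjusted p = 5.94e-06). For the adrenomedullins, the receptor gene Calcrl averaged 0.830 ± 0.295 CPM with AVP and 2.10 ± 0.482 CPM in controls (adjusted p = 0.00155). Its accessory gene Ramp2 averaged 5.09 ± 1.25 CPM with AVP and 6.70 ± 1.18 CPM in controls (adjusted p = 0.0856), with an adjusted p of 0.0297 without AVP replicate 2 and 0.0217 without control replicate 3. Ramp3 averaged 0.436 ± 0.134 CPM with AVP and 0.159 ± 0.0679 CPM in controls (adjusted p = 0.0345), but DESeq2 gave 0.0779. The call was lost without AVP replicate 1 or 3 or control replicate 2 or 3. Ramp3 was tested through its AVP libraries and had 8, 6 and 3 counts in control replicates 1, 2 and 3. The decoy receptor gene Ackr3, whose product takes up adrenomedullin, averaged 0.673 ± 0.243 CPM with AVP and 3.96 ± 1.45 CPM in controls (adjusted p = 9.14e-06). No count of Ramp1 was found in any library, so its level could be at most 0.0275 CPM in the AVP group and 0.0278 CPM in the control group (counting error only).

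For VEGF-A, the main receptor gene Kdr averaged 263 ± 17.0 CPM with AVP and 319 ± 15.1 CPM in controls, a small fall of 0.28 on the log2 scale (SE 0.06, adjusted p = 0.000641). The co-receptor gene Nrp1 rose by 1.38, to 62.0 ± 5.19 CPM with AVP, against 23.9 ± 0.817 CPM in controls, and Flt1 averaged 0.725 ± 0.126 CPM with AVP and 0.509 ± 0.189 CPM in controls (adjusted p = 0.296). Among 4 partners of the stanniocalcins, 2 rose and 1 fell, while 28.7% of all tested genes rose and 28.8% fell. Pappa, the protease gene, rose to 1.47 ± 0.244 CPM with AVP, against 0.218 ± 0.139 CPM in controls (log2 fold change 2.74, SE 0.43, adjusted p = 5.23e-05). It was tested through its AVP libraries and had 6, 4 and 13 counts in control replicates 1, 2 and 3, and without control replicate 3 the log2 fold change was 3.36. Of the genes of its substrates, Igfbp4 fell to 5.67 ± 0.967 CPM with AVP, against 25.6 ± 2.03 CPM in controls, and Igfbp5 rose to 34.6 ± 0.834 CPM, against 19.4 ± 4.23 CPM. Pappa2, a related protease gene, missed the threshold with a log2 fold change of -0.64 (adjusted p = 0.232).

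**Figure D4:**
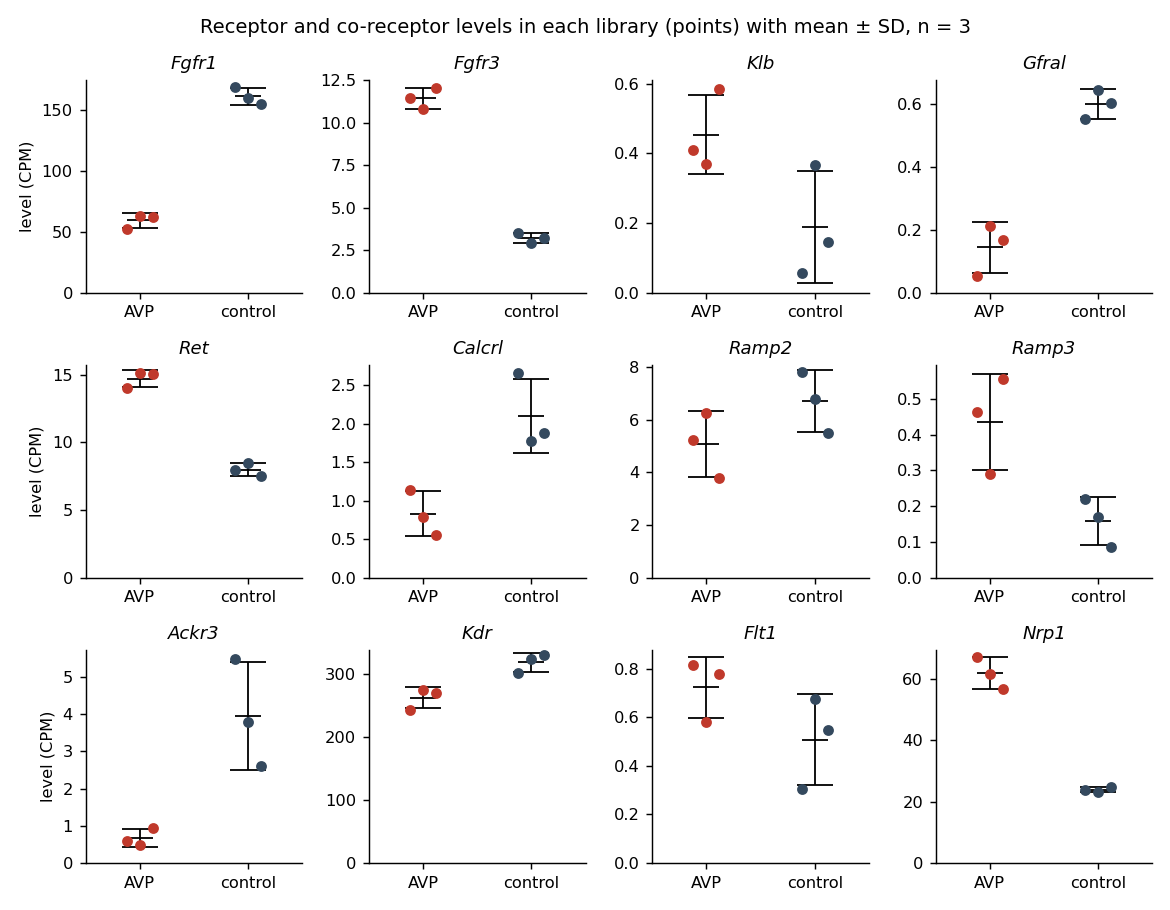
Levels in CPM (vertical axes, linear from 0, scale set for each gene) of 12 receptor and co-receptor genes in AVP and control libraries; points are single libraries and bars the mean ± SD (n = 3). Fgfr3, Ret, Nrp1, Ramp3 and, by a narrow margin, Klb lie higher with AVP. Fgfr1, Gfral, Calcrl, Ackr3 and Kdr lie lower, and Ramp2 and Flt1 overlap. Klb, Gfral, Ramp3 and Flt1 stay below 1 CPM.

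The nearest protein-coding neighbour on each side of each gene was examined, since position played no part in the choice of the 7. Of 14 neighbours, 6 fell, 2 rose, 2 did not pass the threshold, 3 had too few counts to be tested and Gm17332 was not analysed here. Over all 14163 tested genes, 28.8% fell and 28.7% rose. Fut1, a fucosyltransferase gene that begins 1.80 kb from Fgf21 and is read away from it on the plus strand, had 0, 5 and 9 counts in AVP replicates 1, 2 and 3 and 49, 58 and 56 counts in control replicates 1, 2 and 3. Its log2 fold change of -3.56 (SE 0.54, adjusted p = 3.97e-05) rests on 14 counts with AVP, and the gene was tested through its control libraries. Without AVP replicate 3 the log2 fold change of Fut1 was -4.45. Bcat2, a branched-chain amino acid transaminase gene 24.2 kb away on the other side of Fgf21, fell by 1.18 (adjusted p = 4.12e-08).

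Beside Gdf15, Pgpep1 fell by 0.97, and beside Adm2, Miox fell by 1.14 whereas Sbf1 rose by 0.31 on the log2 scale. The neighbours of Adm split, with Sbf2 falling by 0.71 and Ampd3 rising by 0.91. Mrps18a beside Vegfa fell by 0.26, and 1600014C23Rik on its other side had a log2 fold change of -0.32 (adjusted p = 0.578). Bod1 beside Stc2 had a log2 fold change of -0.13 (adjusted p = 0.154), with an adjusted p of 0.0240 without control replicate 3. Lrrc25, Adam28 and Nkx2-6, beside Gdf15 and Stc1, had between 0 and 6 counts over any group.

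**Figure D5:**
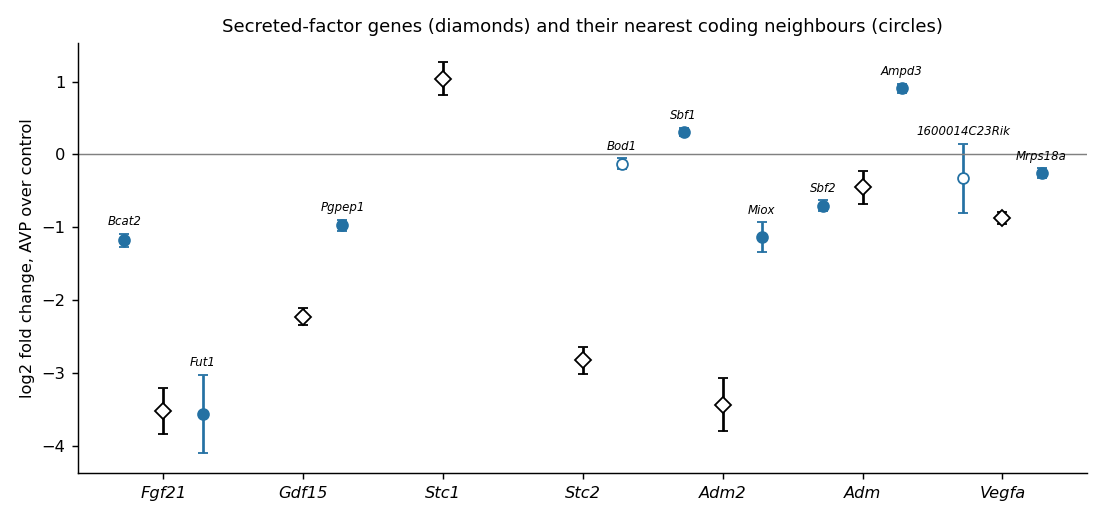
Log2 fold change of AVP over control (vertical axis, bars show the SE) for the 7 genes (open diamonds, no test) and their nearest coding neighbours at lower (left) and higher (right) coordinates (circles, filled where the adjusted p was under 0.05; untested neighbours are not drawn). Fut1 lies at the level of Fgf21, whereas the neighbours of the other genes lie closer to 0 or on both sides of it.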

How the data were processed

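Per the labels' protocols, TRIzol RNA of 3 AVP-treated and 3 control GT1-7 cultures was read by Illumina sequencing. The authors deposited unnormalised read counts, whole numbers for each gene symbol. The genome is mm10 (GRCm38) per the submitters' processing notes. Its aligner, counter, annotation and strand setting: not given in the sources used here. Of 24391 rows, 27 had symbols turned into dates or repeated and were kept unnamed.

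Counts were filtered with filterByExpr (minimum count 10), scaled with TMM factors and fitted with edgeR 4.0.16 (robust quasi-likelihood F test, no covariates, R 4.3.3), with Benjamini-Hochberg adjustment over 14163 genes at 0.05. A positive log2 fold change means higher with AVP, and its SE was obtained as its size over the root of F. DESeq2 1.42.0 was an alternative, beside other scalings, filters, the replicate number as a block and each library left out. The fit was tested on simulated data with far fewer changed genes than were called here. That test thus did not cover the present share of calls. Libraries of a group differed pairwise by a chi-square of at least 7.17 per degree of freedom, so none was a duplicate. The members, lists and tests were chosen with earlier results of these data known. Named genes were up to 4 per list with the smallest p, fixed regulators and receptors, and the neighbours. The 2 genes most alike for each member were also named (unnamed gene models left out). Others named had a motif match, are marked, were cell markers or untested, or changed between alternatives. Eif2ak1 to Eif2ak4, Ackr3 and Pdia4 were named outside this rule. Positions and exon lengths come from GENCODE M21, and promoter sequences and older symbols from RefSeq (GRCm38.p6).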

Additional observations from a re-analysis of the deposited data

How the results depend on the processing

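The direction of all 7 secreted factors held under every alternative run: other scaling, DESeq2, testing without a filter, a minimum mean of 50 counts (which leaves out Adm2), the replicate block, Rn45s left out (added after the data were seen) and each library left out. The Fgf21 log2 fold change ran between -4.22 and -3.24 with 1 library left out. A requirement of at least 2-fold lowered the calls over all genes to 737 higher and 679 lower. With a mean of at least 50 counts, 1 of the PAPP-A partners and 1 of the stress-secreted factors were higher, since low genes leave the test. With 1 library left out, the count higher among IRE1 and ATF6 genes was 0 to 1. The count lower was then 0 to 1 among p53 genes and 1 to 2 among metabolic regulators of Fgf21. Without a filter, the count lower among these metabolic regulators was 2. The cause of these shifts was not tested. Of the single values of other named genes, 1560 kept their direction and side of the threshold, 25 no longer passed, 15 newly passed and 9 changed sign. Neither these 9 values nor those with all libraries passed the threshold, though Hspa5 passed without AVP replicate 3 (log2 fold change -0.2719, adjusted p = 0.00311). With 1 library left out, the log2 fold change ran between -0.0036 and 0.1585 for Creld2, -0.0506 and 0.1637 for Sdf2l1, -0.2719 and 0.036 for Hspa5, -0.5173 and 0.2431 for Gnrh1, -0.0286 and 0.1059 for Snap25, and -0.349 and 0.786 for Cdh5. With the block, the calls of Ramp2 and Ramp3 changed, and so did that of Phgdh (adjusted p = 0.0662). All counts under the other alternatives stayed within 1.5 times.

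Samples with the same replicate number did not deviate together (correlations 0.04, -0.22 and -0.04 over 11044 genes). This cannot settle whether cultures with the same number were handled as a pair, which the labels do not state. With the replicate block, 3972 genes were higher and 3969 lower. Adm2, Gfral, Klb, Ramp3, Pappa, Angptl4 and Fut1 rest on few counts in at least 1 group, which limits the precision of their folds.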
